A study of Homo sapiens with 24 samples.

Results

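The let-7f-5p inhibitor was compared with the inhibitor negative control in Y537S cells, and these 4 libraries were chosen by their labels from the 24 of the series. Y537S cells are clones of T-47D, an established luminal breast cancer cell line, that carry the Y537S mutation in 1 copy of the endogenous ESR1 gene, so every library of the comparison shares this mutant estrogen receptor. Clones 1 and 2 were each transfected with 10 nM of the inhibitor or of its control and were harvested 24 h later, and the study treats the 2 clones as duplicates. The cells were kept in hormone-deprived medium, and the other 6 Y537S libraries, used here only for side by side values, received the mimic negative control, the miR-301b-3p mimic or the miR-331-3p mimic. An inhibitor is a modified antisense oligonucleotide that binds a mature miRNA, and a negative control oligonucleotide has no intended target. The question was which mRNAs move when let-7f is blocked in cells with this receptor. Libraries were made from poly-A RNA, so mature let-7f, which has no poly-A tail, was not measured, and the block itself could not be checked in these libraries. No untransfected Y537S library was analysed here.

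MicroRNAs guide Argonaute proteins to mRNAs that pair with the seed, bases 2 to 8 of the miRNA, and paired mRNAs are degraded or poorly translated. The let-7 family accumulates as cells differentiate and holds down growth and stem cell genes such as HMGA2 and LIN28. Part of its targets act back on miRNAs: DICER1 cuts miRNA precursors to their mature form, and LIN28A binds let-7 precursors and sends them to decay. Genes of the interferon response are described below as well, since they made up most of the large falls. They are switched on when RNA sensors such as RIG-I or interferon receptors activate transcription factors such as IRF9, which bind a shared promoter element.

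The family members were set beside let-7f-5p to show what an antisense oligonucleotide has to tell apart. RefSeq (GRCh38.p14) held 11 mature miRNAs with the same seed, and let-7f-5p comes from 2 loci, of which MIRLET7F2 lies within the HUWE1 gene. The seed is in capitals in the 5 shown here, written 5′ to 3′:
let-7f-5p: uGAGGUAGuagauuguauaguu
let-7a-5p: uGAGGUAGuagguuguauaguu
let-7c-5p: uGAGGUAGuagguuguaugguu
let-7g-5p: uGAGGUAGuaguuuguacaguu
miR-98-5p: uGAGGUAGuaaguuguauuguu
Positions were counted from 1 at the 5′ end, with the base of let-7f-5p first. let-7a-5p differed from let-7f-5p at 1 position (A12G), let-7c-5p at 2 (A12G and A19G), let-7g-5p at 2 (A12U and U18C) and miR-98-5p at 3 (G11A, A12G and A19U). No shown difference lay in the seed. Which family members the inhibitor bound was not measured.

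The letters that pair with this seed in an mRNA are CTACCTC, and an A after them faces base 1 of the miRNA. The sites below belong to the named genes with such a match and the smallest p-values, and to DICER1, whose matches were looked up after its values were seen. They are from GENCODE transcripts on GRCh37 (hg19), on the strand of the mRNA, with the match in capitals:
LIN28A, 3′ UTR: gcacagcctattgaaCTACCTCa
LRIG3, 3′ UTR: gaaaagcttaacataCTACCTCa
STX3, 3′ UTR: aggtgctgtatttttCTACCTCa
IGDCC3, 3′ UTR: tttggctctcagcacCTACCTCa
TMEM2, 3′ UTR: actttacaaaatatgCTACCTCa
ARID3B, 3′ UTR: tatttcaataaacctCTACCTCt
PLAGL2, 3′ UTR: ttcagaaacacacttCTACCTCt
DTX3L, 3′ UTR: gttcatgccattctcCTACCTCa
DICER1, coding: tacccgtgcaaccaaCTACCTCa
The LIN28A site lies at chr1:26753839-26753861 on the plus strand and the STX3 site at chr11:59568648-59568670 on the plus strand. The LRIG3 site lies at chr12:59266314-59266336 on the minus strand, with the match starting at base 33 of a 3′ UTR of 417 bases. IGDCC3 has 4 matches in a 3′ UTR of 1782 bases, and the one shown is at chr15:65620788-65620810 on the minus strand. ARID3B (chr15:74890442-74890464, plus strand) and PLAGL2 (chr20:30782622-30782644, minus strand) each have 1 match in the 3′ UTR and 1 in the coding sequence. TMEM2 (chr9:74298636-74298658, minus strand) and DTX3L (chr3:122290851-122290873, plus strand) have 1 each. DICER1 has no match in its annotated 3′ UTR of 4270 bases and 4 in its coding sequence, of which the one shown is at chr14:95570085-95570107 on the minus strand. A match is a description of letters and not a measured binding site.

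Of 15140 genes tested, 653 rose (4.31%) and 1041 fell (6.88%) with the inhibitor, at a Benjamini-Hochberg adjusted p under 0.05 in edgeR's quasi-likelihood test with the clone as a block. The changes were small. The median size of a called change was 0.19 on the log2 scale among the rises and 0.28 among the falls, and 7 rises and 44 falls exceeded 1. With 1 residual degree of freedom in the fit, the spread of a gene was mostly borrowed from other genes. The block takes out the level difference between the clones, so the p-values measure how unlike the change was in these clones. The call depends on the block: without it edgeR called 0 genes (786 at an unadjusted p under 0.05) and DESeq2 called 79, and with it DESeq2 called 666, every one of them also called by edgeR in the same direction.

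Known let-7 targets made up 4 of the 12 largest rises among genes averaging 3 log2 CPM or more. A list of 51 genes described as let-7 targets in the literature had 46 members tested, of which 19 rose, 2 fell and 25 did not pass the test, against a background of 4.31% rising and 6.88% falling. Their median log2 fold change was 0.12, against 0.00 for all genes tested. By role, 6 of 12 transcription and chromatin factors rose, 3 of 4 RNA-binding proteins and let-7 regulators, 3 of 6 cell cycle genes, 3 of 12 receptors and signalling genes and 4 of 12 others.

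LIN28A, the RNA-binding protein that stops let-7 maturation, was at 47.5 and 71.4 CPM (counts scaled to library size) in clones 1 and 2 with the control and at 102 and 119.6 with the inhibitor. Both inhibitor libraries were above both control libraries. How many of all genes tested separate in this way was not counted. The log2 fold change was 0.93 ± 0.07 (SE), with an adjusted p of 2.94e-08 in edgeR. Its paralog LIN28B stayed at or below 0.178 CPM in all 10 Y537S libraries and was not tested.

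DICER1, the ribonuclease that matures miRNAs, rose from 217 and 193 CPM to 376 and 304. Its log2 fold change was 0.74 ± 0.04 (edgeR adjusted p = 6.77e-10), at 0.82 in clone 1 and 0.65 in clone 2. Of 19 tested genes of miRNA production and silencing, 6 rose and 0 fell in edgeR (1 fell at an unadjusted p under 0.05, and 0 in DESeq2), and DICER1 and LIN28A moved the most. AGO2, the Argonaute that can cut its target RNA, followed with 0.37 ± 0.05, DROSHA, the nuclear enzyme of the first cut, with 0.20 ± 0.04, TNRC6B, a silencing scaffold, with 0.18 ± 0.05, and XPO5, the exporter of miRNA precursors, with 0.17 ± 0.04. The other 13 did not pass the test, among them ZCCHC11, the enzyme that tails let-7 precursors together with LIN28A. The background at that threshold was 4.31% rising. Against the mimic control, where 5.13% of all genes rose and 6.84% fell, 2 of the 19 rose and 3 fell: TNRC6B fell there by 0.38 ± 0.07, while AGO2 (0.16), XPO5 (0.09) and DROSHA (−0.03) did not pass.

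ARID3B and ARID3A, DNA-binding proteins of the same family, both rose. ARID3B was at 9.83 and 9.88 CPM in the controls and at 19.5 and 20.8 with the inhibitor, a log2 fold change of 1.04 ± 0.10 (edgeR adjusted p = 1.91e-06). ARID3A was at 17.8 and 28.7 against 29.3 and 38.7 CPM (0.58 ± 0.08), so the groups barely separated and the difference was visible within each clone. HIC2, a transcriptional repressor with 4 matches in its 3′ UTR, went from 5.36 and 4.85 to 10.2 and 7.75 CPM (0.82 ± 0.15).

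PLAGL2 and TUSC2 were examined because the study names them. PLAGL2, a zinc finger transcription factor, was at 74.7 and 75.3 CPM in the controls and at 126 and 109 with the inhibitor (log2 fold change 0.66 ± 0.05, edgeR adjusted p = 1.79e-07). TUSC2, a mitochondrial protein first described as a tumour suppressor, went from 30.8 and 33.8 to 49.6 and 47.8 CPM (0.61 ± 0.07, adjusted p = 9.25e-06). In both genes the groups did not overlap, which was not counted over all genes tested. ESR1 itself, at 289 and 163 CPM in the controls and 264 and 159 with the inhibitor, did not pass the test (−0.07 ± 0.04, adjusted p = 0.255), and its level differed more between clones than between treatments. With a correction for GC content it stood at −0.11 and passed, but the p-values of that fit are too small. The corrected fit without the block called 0 genes.

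**Figure D1:**
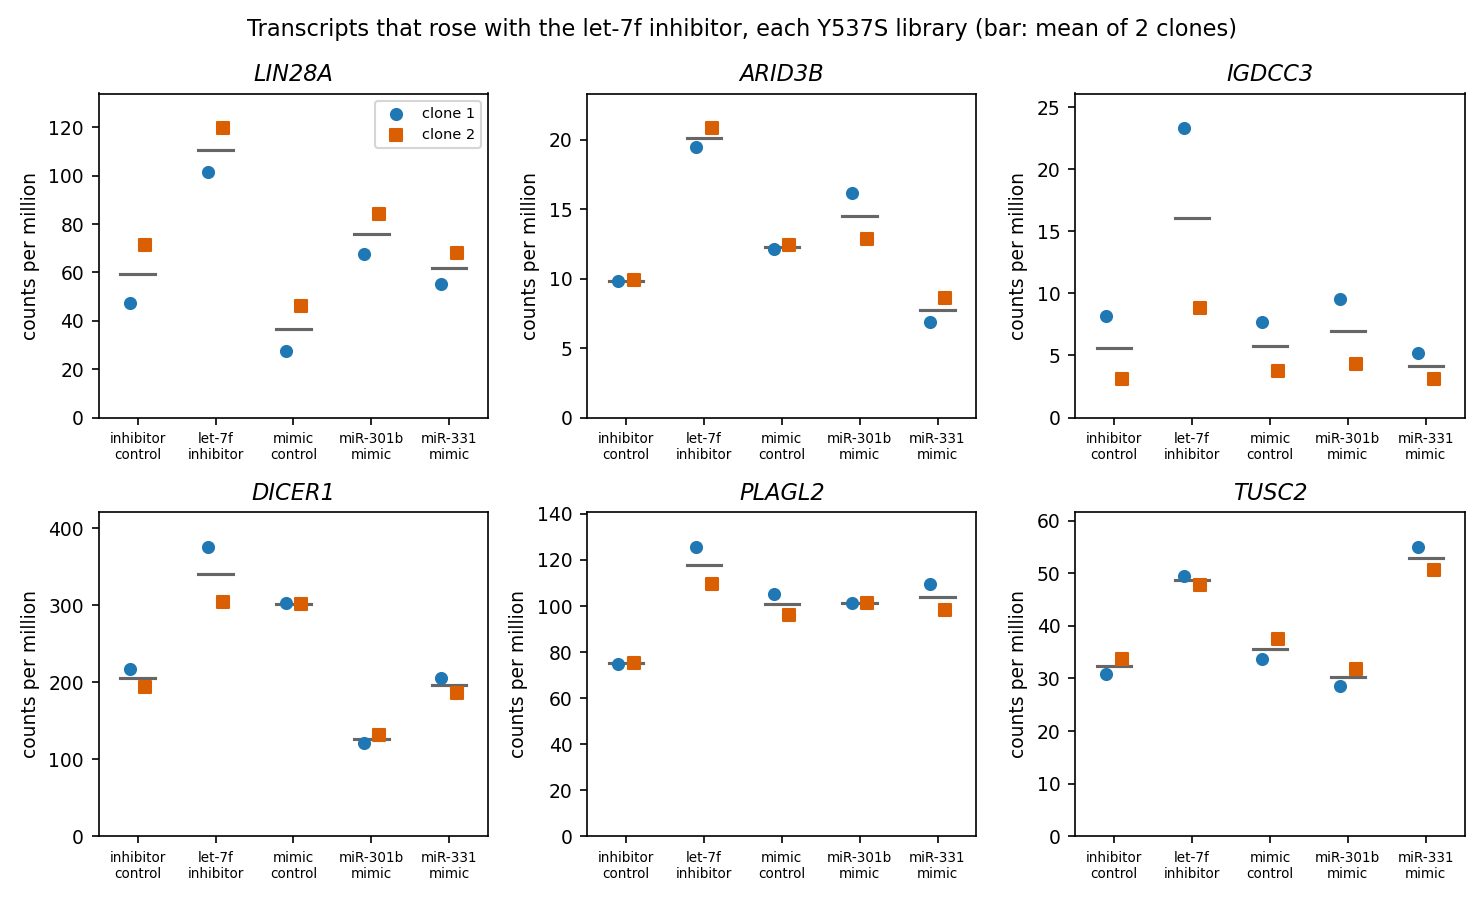
Levels of 6 transcripts that rose with the let-7f inhibitor, in CPM (TMM-scaled over the 10 Y537S libraries), for each of 5 Y537S conditions. Circles are clone 1, squares clone 2 and bars their mean. All 6 are higher with the let-7f inhibitor than with its own control in each clone, as were all 653 genes called up. DICER1 and PLAGL2 also sit higher in the mimic control (302 and 301 CPM for DICER1) than in the inhibitor control (217 and 193).

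Among the 12 largest rises, taken over genes averaging 3 log2 CPM or more, 7 were not in the target list and carry a match in the 3′ UTR. IGDCC3, a membrane protein of the immunoglobulin superfamily, gave the largest, from 8.14 and 3.14 to 23.3 and 8.84 CPM (log2 fold change 1.52 ± 0.13). The clones differ in its level, and its change was 1.53 in clone 1 and 1.48 in clone 2. LRIG3, a leucine-rich membrane protein, rose by 0.80 ± 0.04 from 97.7 and 70.4 to 172 and 119 CPM. STX3, a syntaxin of membrane fusion, rose by 0.69 ± 0.04, with 144 and 143 CPM in the controls against 230.2 and 229.9. TMEM2, a cell surface hyaluronidase, rose by 0.67 ± 0.07, SLC35D2, a nucleotide sugar transporter, by 0.64 ± 0.11, FAM103A1, a partner of the mRNA cap methyltransferase, by 0.65 ± 0.10, and HDHD1, a phosphatase of modified nucleotides, by 0.67 ± 0.09. TIMM23B also appeared among the 12, at 0.76 ± 0.17, but it shares sequence with TIMM23, so its counts are uncertain, and its change was 1.21 in clone 1 and 0.22 in clone 2.

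Other listed targets moved little or in the other direction. NRAS, a small GTPase of growth factor signalling with 1 match in its 3′ UTR, fell by 0.18 ± 0.04, a call that did not hold after a correction for GC content (−0.04). Against the mimic control NRAS was higher by 0.43 ± 0.06 and passed the test, and it was 0.61 ± 0.06 higher in the inhibitor control than in the mimic control. HMGA2, with 4 matches, was near the limit of detection, at 0.255 and 0.0480 CPM in the controls and 0.310 and 0.289 with the inhibitor. CDC25A, a phosphatase that drives the cell cycle, rose by 0.27 ± 0.07, CCNJ, a cyclin, by 0.28 ± 0.08 and the death receptor FAS by 0.35 ± 0.08. Against the mimic control these stood at −0.01 ± 0.10, −0.09 ± 0.09 and −0.04 ± 0.09 and did not pass, and all 3 were lower in the inhibitor control than in the mimic control (−0.28 ± 0.07, −0.37 ± 0.08 and −0.38 ± 0.08). TRIM71, IGF2BP1 and LIN28B, oncofetal targets with 4 to 6 matches each, were too low to be tested.

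Across all genes, those with a let-7 match in the 3′ UTR were more frequent among the rises. Of 13351 tested genes with an annotated 3′ UTR, 10.9% held at least 1 match, against 27.0% (170 of 630) of the rises and 8.11% (83 of 1023) of the falls. The share of genes called up grew with the number of matches, from 3.87% of 11895 genes without a match to 10.9% of 1284 with 1, 16.1% of 143 with 2 and 24.1% of 29 with 3 or more. The 24.1% is 7 genes. In the same order the share called down was 7.90%, 5.45%, 7.69% and 6.90%, without a steady trend. The medians moved far less, and stood at 0.04, 0.03 and 0.04 with 1, 2 and 3 or more matches. In clone 2 the median with 3 or more was −0.02. The median log2 fold change was 0.04 with a match and 0.00 without, a difference of 0.038 that was 0.05 with the 8-base match. Matches in the coding sequence gave a like picture, in 28.3% of the rises and 6.74% of the falls against 14.4% of all these genes. Genes with more matches also have longer 3′ UTRs, with a median of 1148 bases at 0 matches and 5954 at 3 or more, and the part of length was not tested.

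The same count for miRNAs that were not targeted gives a scale. Matches to the seed of miR-331, which is rich in G and C, were also more frequent among the rises (24.0% against 15.5% of all genes). Seed matches of miR-301b were more frequent among the falls, at 25.2% against 16.1%, as were those of miR-181c, at 35.4% against 21.2%. With a correction for GC content the shares among the rises became 18.0% (miR-331), 19.2% (miR-301b) and 30.0% (miR-181c), and the let-7 share was 25.3%. Within each of 5 equal bins of genes by GC content, the median of genes with a let-7 match exceeded that of the others by 0.04 to 0.06.

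Transcript GC content moved with the falls. In the lowest of 5 equal bins, with 30.7 to 40.9% GC, 675 of 2916 genes fell and 51 rose, and the median log2 fold change was −0.11, at −0.09 in clone 1 and −0.14 in clone 2. In the fourth bin, 40 fell and 195 rose, with a median of 0.05. The median GC content was 39.0% among the falls, 51.2% among the rises and 48.8% among all genes tested. After the correction 710 genes rose and 887 fell, and of the 1694 original calls 1086 were called again, 1083 of them in the same direction. The p-values of the corrected fit are too small, as described under the processing. The part of GC content in single calls was not tested.

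**Figure D2:**
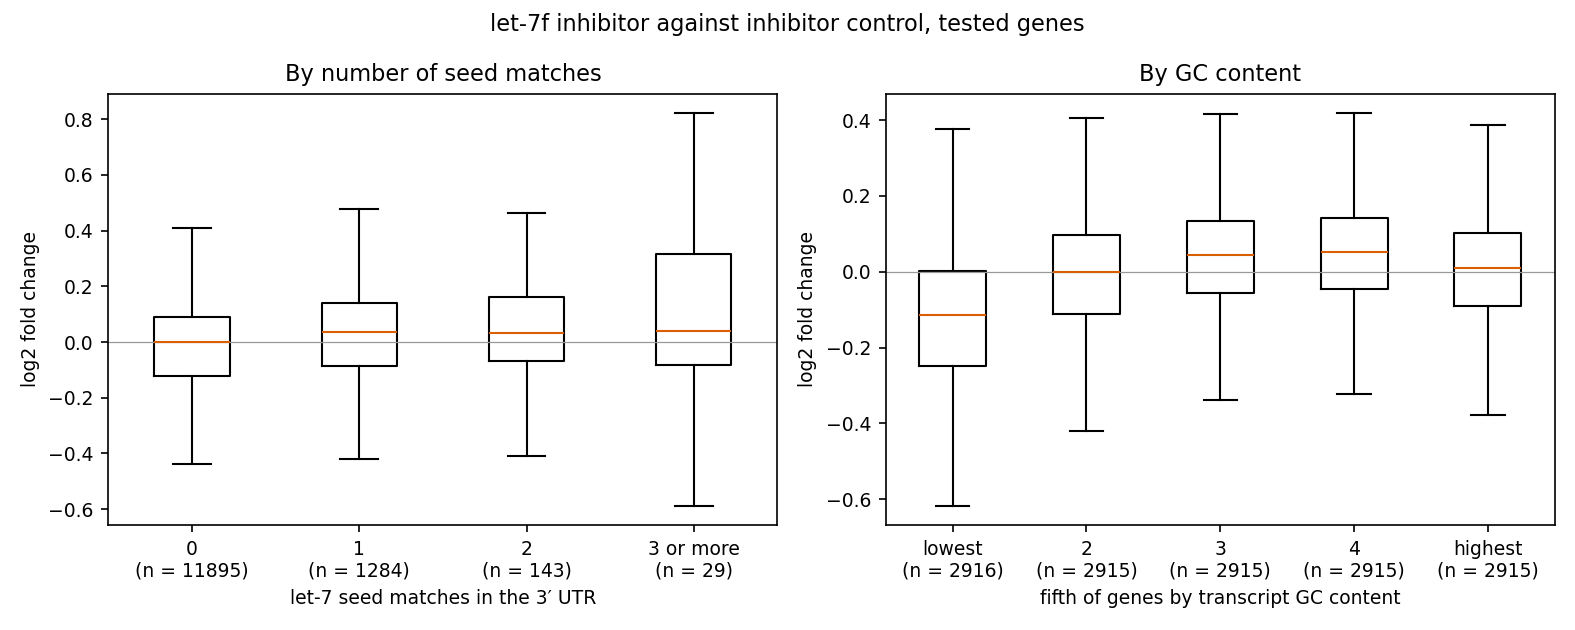
Log2 fold change of the tested genes (let-7f inhibitor against inhibitor control) by the number of let-7 seed matches in the 3′ UTR (left) and by 5 equal bins of transcript GC content (right). Boxes span the quartiles with the median inside, whiskers reach 1.5 times the box and more distant genes are not drawn. The boxes shift upward slightly with matches, and the box of lowest GC content sits lowest, with a median of −0.11.

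Listed interferon-stimulated genes made up 8 of the 12 largest falls among genes averaging 3 log2 CPM or more. Of 56 tested genes on a list of 60, 43 fell, 0 rose (0 at an unadjusted p under 0.05) and 13 did not pass in edgeR, with a median log2 fold change of −0.88, against a background of 6.88% falling. The antiviral effectors led, with 27 of 32 falling and a median of −1.50. Of the sensors and signalling proteins 7 of 9 fell (−0.68), of the ISG15 conjugation and PARP genes 7 of 9 (−0.57) and of the antigen presentation genes 2 of 6 (−0.21). DESeq2 called 9 of them lower with the block and 18 without it, and 0 higher. Bulk RNA cannot tell fewer responding cells from less of these transcripts in each cell.

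IFIT1, which binds viral RNA that lacks cap methylation, was at 63.4 and 26.6 CPM in the controls and at 7.42 and 6.03 with the inhibitor. The log2 fold change was −2.63 ± 0.14, which is a level 6.21-fold lower (edgeR adjusted p = 6.77e-10). The 2 clones differed in the height of the control rather than in the level reached with the inhibitor, and the change was −3.07 in clone 1 and −2.13 in clone 2.

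MX1, a dynamin-like GTPase that blocks viral replication, was at 144 and 70.5 CPM against 18.1 and 30.2 (log2 fold change −2.06 ± 0.21). OAS2, which makes the 2-5A messenger of RNase L, was at 56.6 and 42.5 against 8.51 and 19.4 CPM (−1.85 ± 0.20), and IFI6, an interferon-induced membrane protein, at 56.5 and 34.2 against 10.1 and 15.4 CPM (−1.78 ± 0.17). In all of these the groups did not overlap, and the fall was larger in clone 1. They were chosen among called genes, which favours such separation, and its share over all genes was not counted. ISG15, the ubiquitin-like modifier, was lower in abundance and went from 10.6 and 6.16 to 1.45 and 1.91 CPM (−2.25 ± 0.23).

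The transcription factor subunit IRF9 fell from 36.8 and 24.9 to 10.3 and 13.0 CPM (−1.37 ± 0.14), and HELZ2, a helicase and nuclear receptor coactivator that is not on the list, from 94.0 and 46.9 to 25.8 and 25.5 (−1.37 ± 0.13). SAMD9, an antiviral restriction factor (−1.49 ± 0.16), and IFIT5, an RNA-binding relative of IFIT1 (−1.09 ± 0.15), also fell. DTX3L, a ubiquitin ligase that acts with PARP9, fell by 0.99 ± 0.10 although its 3′ UTR holds a let-7 match. Among the 56 tested members 49 were lower in both clones, and the median change was −1.38 in clone 1 and −0.42 in clone 2. The summed level of the 60 genes was 2652.5 and 2031 CPM in the controls and 1497 and 1612 with the inhibitor.

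None of the 6 listed interferon ligands was tested, and IFNB1 was at 0.117 and 0.0480 CPM in the controls and 0.155 and 0 with the inhibitor. Of 11 tested receptors, kinases and adaptors 2 rose and 1 fell, against 4.31% rising and 6.88% falling among all genes tested. MAVS, the mitochondrial adaptor of RNA sensing, rose by 0.24 ± 0.03 and IL10RB, a receptor chain for type III interferons, by 0.23 ± 0.07. IFNAR1, a chain of the type I receptor, fell by 0.19 ± 0.04. Against the mimic control MAVS stood at 0.15 and did not pass, while IL10RB (0.56) and IFNAR1 (−0.20) passed. Of 9 tested NF-kB targets edgeR called 0 (2 at an unadjusted p under 0.05), as did DESeq2 with and without the block.

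Promoters of the interferon-stimulated genes were searched for the letters of the element that interferon-activated transcription factors such as IRF9 bind. The core searched was GAAANNGAAA, on both strands, in the 250 bases before and 50 after each RefSeq start site (GRCh38.p14). It was found in 23 of 36 falling list members with a promoter in the table (63.9%), in 3.92% of the other falling genes, in 2.65% of the rising genes and in 2.71% of all genes tested. Windows from 3 members show it in capitals, and the IFIT1 element is read on the other strand:
IFIT1: ctttccccTTTCGGTTTCcctaggtt
MX1: gcagaaatGAAACCGAAActgaattg
ISG15: gggaaaggGAAACCGAAActgaagcc
They lie at chr10:89392512-89392537, chr21:41420561-41420586 and chr1:1013382-1013407, all on the plus strand. The match describes letters only, and binding was not measured. The share among list members that did not fall was not counted, so the 63.9% cannot be tied to the fall rather than to the list.

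**Figure D3:**
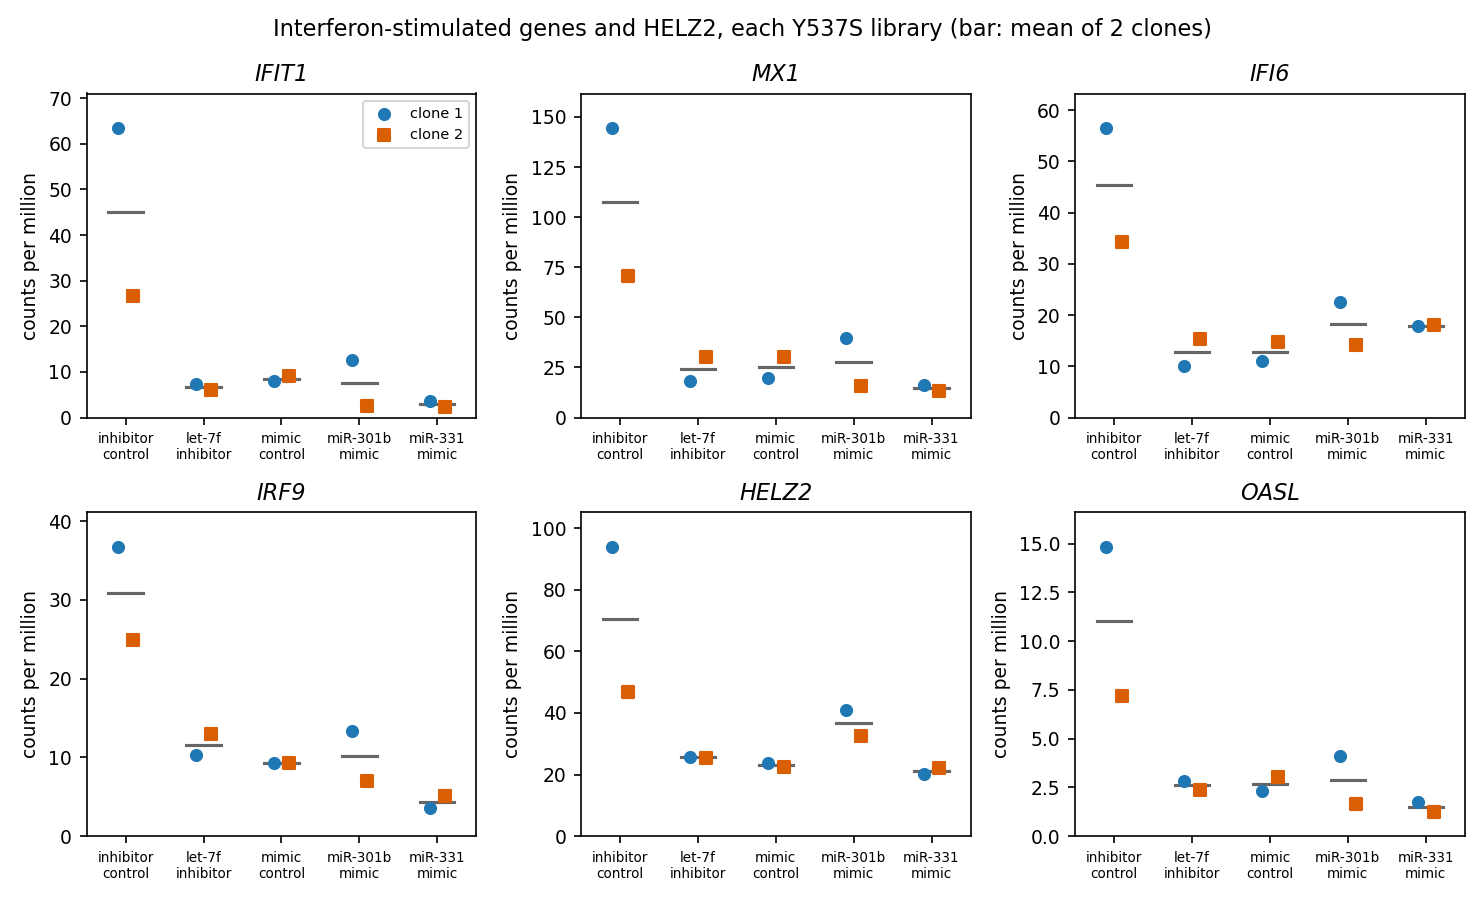
Levels of 5 listed interferon-stimulated genes and of HELZ2, which is not on the list, in CPM for each of 5 Y537S conditions, drawn as for the rising transcripts (circles clone 1, squares clone 2, bars the mean). The 2 inhibitor control libraries stand above the others for each gene, and the let-7f inhibitor libraries sit near the mimic control, as for IFIT1 with 7.42 and 6.03 against 7.93 and 9.15 CPM.

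The inhibitor control libraries stood apart from the rest for these genes, so the inhibitor was also set beside the mimic control, and both comparisons share the let-7f inhibitor libraries. IFIT1 was at 7.93 and 9.15 CPM in the mimic control, 12.7 and 2.51 with the miR-301b mimic and 3.68 and 2.39 with the miR-331 mimic. Against the mimic control in a fit over the 10 Y537S libraries, its log2 fold change with the let-7f inhibitor was −0.40 ± 0.32 (edgeR adjusted p = 0.49), and that of MX1 was −0.04 ± 0.30. In this comparison 5.13% of 15705 genes rose and 6.84% fell, while of 57 tested interferon-stimulated genes 1 rose, 2 fell and 54 did not pass, with a median of −0.07.

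The controls were then compared with each other. In the inhibitor control against the mimic control, 8.87% of 15063 genes were higher and 7.84% lower, and of 56 tested interferon-stimulated genes 41 were higher and 0 lower in edgeR, with a median log2 difference of 0.67. IFIT1 was higher by 2.28 ± 0.16, MX1 by 2.02 ± 0.16 and ISG15 by 2.59 ± 0.20. Both control groups are 2 libraries and without the block this comparison called 0 of these genes. A rise with the control oligonucleotide and a fall with the let-7f inhibitor cannot be told apart from the comparison of these 2 groups alone.

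Beside the mimic control the rising genes were divided. Of those named here, IGDCC3, LRIG3 and STX3 are not on the target list. LIN28A was 1.62 ± 0.09 higher with the let-7f inhibitor (edgeR adjusted p = 5.65e-10), IGDCC3 1.43 ± 0.16, LRIG3 0.85 ± 0.06, ARID3B 0.72 ± 0.13, HIC2 0.64 ± 0.16, ARID3A 0.63 ± 0.09, STX3 0.53 ± 0.06 and TUSC2 0.45 ± 0.08, and all 8 passed the test. PLAGL2 was higher by 0.22 ± 0.07 (adjusted p = 0.033). DICER1 did not pass, at 0.17 ± 0.07 (adjusted p = 0.14), with 302 and 301 CPM in the mimic control. DICER1 and PLAGL2 were lower in the inhibitor control than in the mimic control, by −0.57 ± 0.04 and −0.43 ± 0.06, whereas LIN28A was higher there by 0.70 ± 0.07.

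Of the 46 tested let-7 targets, 10 rose and 3 fell against the mimic control, with a median of 0.11. The shares of all genes there were 5.13% rising and 6.84% falling. In the inhibitor control against the mimic control 3 of these targets were higher and 12 lower, with a median of −0.12. Of all genes, 8.87% were higher and 7.84% lower in that comparison. FIGN, a microtubule-severing enzyme that rose by 0.50 ± 0.11 against the inhibitor control, stood at 0.07 ± 0.13 against the mimic control. Matches to the let-7 seed were found in 15.6% of the genes higher than in the mimic control and in 10.3% of the lower ones, around a share of 10.9% in all. Between the 2 controls, 14.5% of the genes lower in the inhibitor control held a match and 8.37% of the higher ones.

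**Figure D4:**
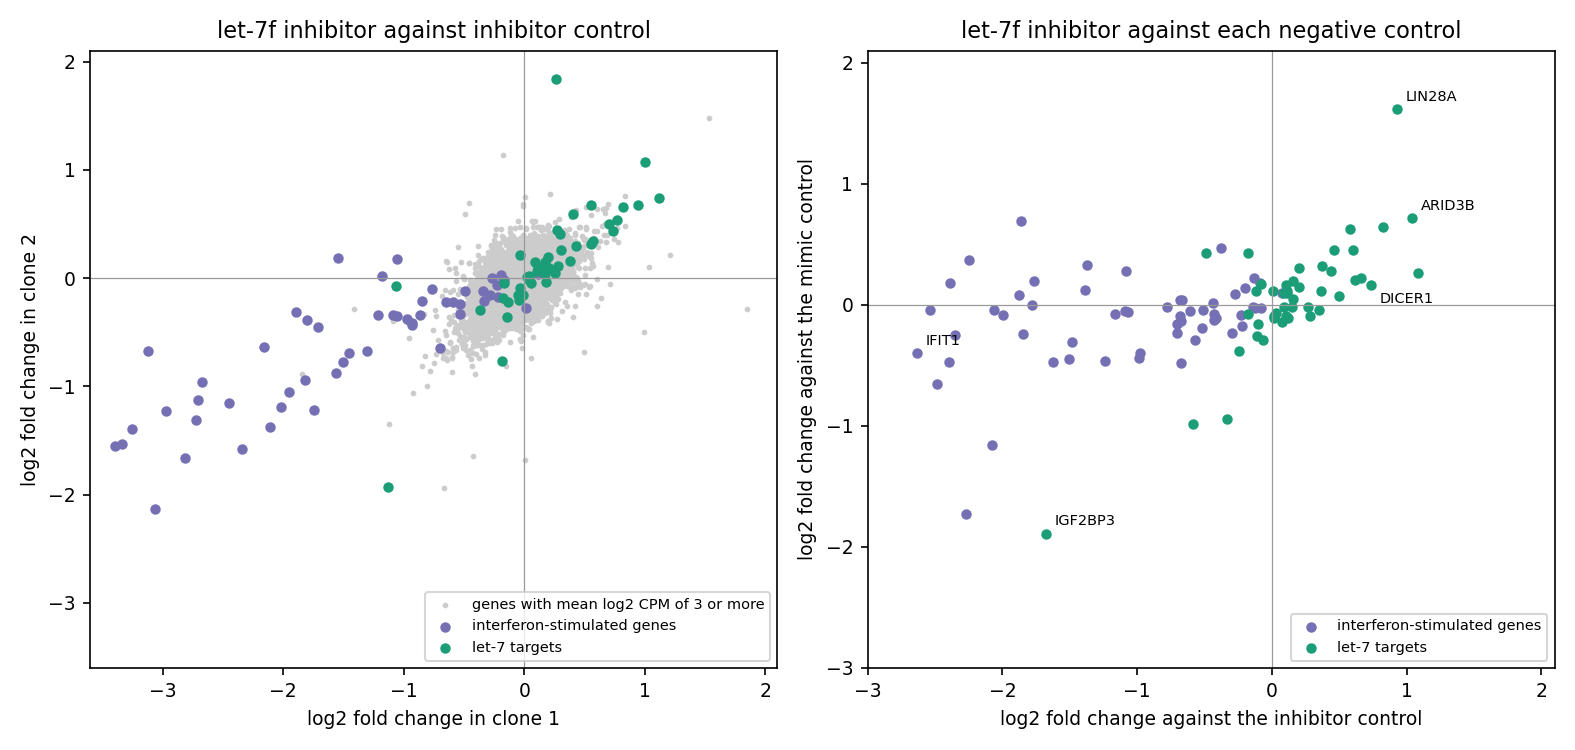
Left, log2 fold change (let-7f inhibitor against inhibitor control) in clone 1 and clone 2 for interferon-stimulated genes (purple), let-7 targets (green) and all genes averaging 3 log2 CPM or more (grey). Right, the log2 fold change of list members against the inhibitor control and against the mimic control, which share the let-7f inhibitor libraries. Interferon-stimulated genes spread to −2.63 on the horizontal axis with a median of −0.07 on the vertical one, and LIN28A and ARID3B are high on both.

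Some falls outside the interferon list recurred beside both controls. TMED7, a cargo receptor of the secretory pathway, was at 144 and 119 CPM in the inhibitor control and 65.3 and 46.4 with the let-7f inhibitor (log2 fold change −1.23 ± 0.05), and at 108 and 114 in the mimic control. UBE2D1, a ubiquitin-conjugating enzyme, was at 20.5 and 18.1 against 10.6 and 8.66 CPM (−0.99 ± 0.11), with 18.0 and 16.9 in the mimic control. Neither has a let-7 match in its 3′ UTR, and both were also low with the miR-301b and miR-331 mimics, TMED7 at 47.3 to 52.8 CPM and UBE2D1 at 7.30 to 11.5. GMFB, SVIP and NDUFC2 were named after their values were seen because they shared this order. How many of all genes tested share it was not counted. GMFB, a regulator of the actin cytoskeleton, was at 142 and 128 CPM in the inhibitor control, 133 and 136 in the mimic control and 81.4 and 71.0 with the let-7f inhibitor, and stayed between 39.6 and 47.6 with the mimics. SVIP, an inhibitor of protein degradation at the endoplasmic reticulum, was at 57.3 and 49.7 against 31.9 and 30.1 CPM. NDUFC2, a subunit of respiratory complex I, was at 35.3 and 31.6 against 19.9 and 15.8. After the GC correction the log2 fold change of GMFB was −0.52, that of SVIP −0.50 and that of TMED7 −1.05.

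SDAD1, a nucleolar protein of ribosome export, fell by 1.31 ± 0.16, and here the controls disagreed. It was at 166 CPM in clone 1 and 352 in clone 2 with the inhibitor control, and at 103 and 91.9 with the let-7f inhibitor. The mimic control held 273 and 265 and the miR-331 mimic 254 and 256, but the miR-301b mimic held 109 and 87.0.

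**Figure D5:**
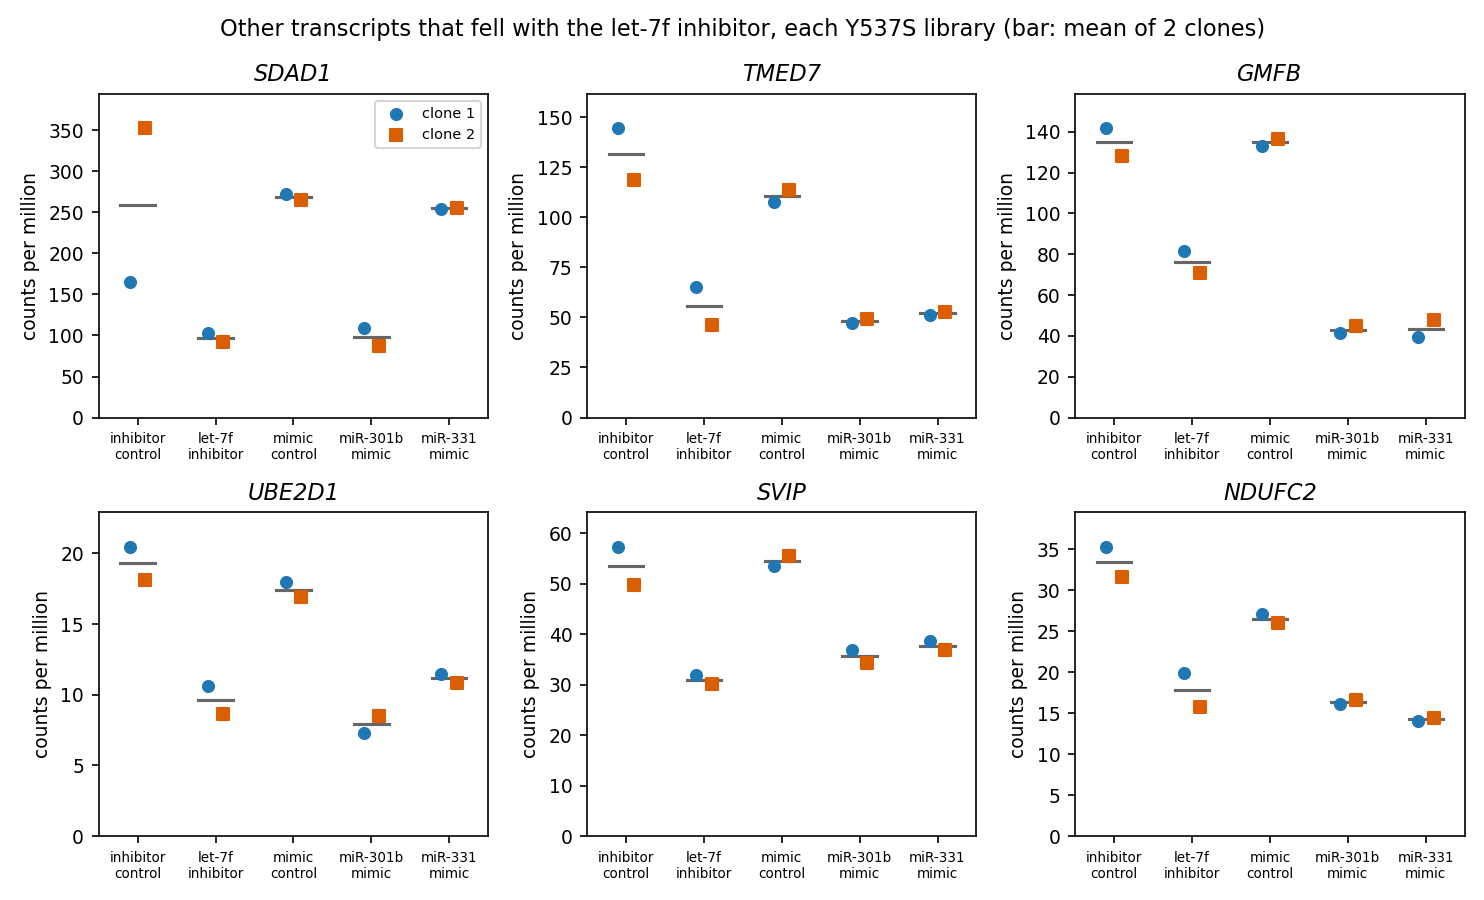
Levels of 6 falling transcripts that are not interferon-stimulated, in CPM for each of 5 Y537S conditions (circles clone 1, squares clone 2, bars the mean). Except SDAD1, which is at 254 and 256 CPM with the miR-331 mimic and differs between the inhibitor control clones, each is lower with the let-7f inhibitor and with both active mimics than with either negative control. GMFB, SVIP and NDUFC2 were picked for this order, and its share over all genes was not counted.

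The remaining lists are read against the background of 4.31% rising and 6.88% falling over all genes tested. Of 44 tested estrogen-responsive genes 4 rose and 5 fell, with a median of −0.03. PGR, the progesterone receptor and a standard target of the estrogen receptor, fell by 0.15 ± 0.03 from 1295 and 1318 to 1175 and 1152 CPM, the chemokine CXCL12 by 0.24 ± 0.04 and the transcription factor MYBL1 by 0.42 ± 0.05 (−0.28 after the GC correction). AREG, an EGF receptor ligand, fell from 1.25 and 1.44 to 0.103 and 0.134 CPM, which is a few reads per library. AREG was 2.72 ± 0.58 higher in the inhibitor control than in the mimic control, and against the mimic control it stood at −0.80 ± 0.83 (edgeR adjusted p = 0.61). ANXA9, an annexin, rose by 0.22 ± 0.05 and IGF1R, the growth factor receptor, by 0.16 ± 0.04.

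Cell cycle genes were divided. Of 42 tested S phase genes 5 rose and 3 fell, and of 54 G2/M genes 5 rose and 8 fell, against 4.31% and 6.88% of all genes. MKI67, the proliferation marker, rose by 0.18 ± 0.03 from 816 and 658 to 887 and 764 CPM, while CDK1, the mitotic kinase, fell by 0.19 ± 0.03 and CCNE2, a cyclin of S phase entry, by 0.22 ± 0.05. The falls of CDK1 and CCNE2 were gone after the GC correction, at 0.02 for each. Against the mimic control MKI67 stood at −0.09 and did not pass, whereas CDK1 (−0.28) and CCNE2 (−0.26) passed. The comparison with the mimic control was not corrected for GC content. Its median was −0.18 in the lowest GC bin, which holds CDK1 and CCNE2, and 0.14 in the highest. The part of GC content in its calls was not tested. In the inhibitor control against the mimic control MKI67 stood at −0.26. TMPO, a nuclear envelope protein, fell by 0.26 ± 0.03 and the histone chaperone ANP32E by 0.34 ± 0.04, the latter at −0.15 after the GC correction. Against the mimic control, where 5.13% of all genes rose and 6.84% fell, 0 of 42 S phase genes rose and 9 fell. Of 54 G2/M genes 1 rose and 19 fell there. In the inhibitor control against the mimic control, 0 S phase genes were higher and 15 lower, and 2 G2/M genes higher and 29 lower. The shares of all genes were 8.87% and 7.84%.

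Against the same 4.31% and 6.88%, 2 of 23 tested cholesterol synthesis genes rose and 6 fell, led by the sterol carrier STARD4 (−0.59 ± 0.08) and the isomerase IDI1 (−0.32 ± 0.04), which stood at −0.33 and −0.20 after the GC correction. Of 20 TGF-beta genes 1 rose and 6 fell: SMAD5, a BMP signal transducer, by 0.46 ± 0.05, with −0.30 after the GC correction, and ID2 and ID1, inhibitors of differentiation factors, by 0.48 ± 0.07 and 0.33 ± 0.05. Of 22 stress response genes 1 rose and 2 fell, and the cystine transporter SLC7A11 moved most (−0.76 ± 0.12). Of 14 MAPK feedback and immediate early genes 1 fell, PHLDA1 (−0.61 ± 0.10). Among 13 luminal markers 3 rose and 4 fell, none by more than 0.36, and KRT8, a luminal keratin, was at 3063 to 3489 CPM in the 4 libraries.

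Depth and purity bear on all of these values. The 4 libraries held 38106621 to 50526442 counts. Markers of basal, stromal, blood and endothelial cells, 15 genes in all, summed to 66.6 to 70.4 CPM, of which 6 were tested and edgeR called 0 (0 at an unadjusted p under 0.05), as did DESeq2. The nuclear RNA MALAT1 was lower in clone 1 of the inhibitor control, at 4282 CPM, than in clone 2 (7795) and in the inhibitor libraries (8661 and 8360.0), and its part in the results was not tested. HUWE1, the host of a let-7f locus, rose by 0.17 ± 0.03.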

How the data were processed

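Poly-A RNA from T-47D Y537S clones was sequenced on an Illumina instrument after a stranded mRNA kit. The authors deposited raw counts per gene, which they made with HISAT2 on hg19, SAMtools and featureCounts (Subread) over UCSC Known Genes. Versions and the strand setting are not given in the sources used here, so antisense partners and near-identical copies are uncertain. One label spells the mutation Y573S, and the titles' Y537S was used.

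From the deposited counts, edgeR 4.0.16 (R 4.3.3) tested 15140 of 26364 genes that passed filterByExpr, with TMM factors, a quasi-likelihood fit of the 4 libraries and the clone as a block, at a Benjamini-Hochberg adjusted p under 0.05. SE is the log2 fold change over the root of F. CPM values use TMM factors over the 10 Y537S libraries. The pairing comes from the shared clone, and the clones' deviations correlated at 0.59 across genes. The comparison with the mimic control used 1 fit over the 10 libraries.

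Alternatives were DESeq2 1.42.0, no block, other scaling and filters, a GC correction and each library left out. On simulated data for this comparison with 14950 genes, the blocked fit recovered 85% of log2 changes of 0.5 and 99% of log2 changes of 1. Without the block these were 0% and 40%. The blocked fit made 10 false calls there and the fit without the block 0. In the real libraries the log2 fold changes of the clones correlated at 0.20 across genes (Pearson). Of 15140 genes tested, 5359 moved in opposite directions in the clones. Recovery of changes that differ between the clones was not tested. Seed matches used GENCODE 44 transcripts lifted to GRCh37, and 23852 genes had one. The members, lists and tests were chosen with earlier results of these data known. Named genes were TUSC2, PLAGL2 and ESR1, the 12 largest rises and falls over calls averaging 3 log2 CPM or more with 1 direction in both clones, and up to 6 called genes of each list by p-value (2 where none was called). ARID3A, CDC25A, CCNJ, FAS, NRAS, HMGA2, LIN28B, TRIM71, IGF2BP1, HIC2, ISG15, IFNB1, GMFB, SVIP, NDUFC2, HUWE1, MALAT1 and ZCCHC11 were named as list members or after their values were seen. Results for some genes are not reported here.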

Additional observations from a re-analysis of the deposited data

How the results depend on the processing

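The 653 rises and 1041 falls became 0 and 0 without the replicate block, 200 and 466 in DESeq2 with it, 16 and 63 in DESeq2 without it, 0 and 0 with a GC correction and no block, and 127 and 547 in a fit over all 10 Y537S libraries. The share of rises among all calls was 38.5%, 20.3% in DESeq2 without the block and 18.8% over the 10 libraries. In the same order of settings, the 124 calls among listed genes became 0, 51, 24, 0 and 66, and the 19 rising let-7 targets became 0, 10, 5, 0 and 10. The 43 falling interferon-stimulated genes became 0, 9, 18 and 0 under the first 4. The 41 such genes higher in the inhibitor control than in the mimic control became 0 without the block.

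With 1 of the 4 libraries left out, rises ranged from 0 to 64, falls from 0 to 312, listed genes from 0 to 50, interferon-stimulated genes from 0 to 33 and let-7 targets from 0 to 8. These fits have no block, or draw the spread from the other Y537S conditions, and the lone sample of a group is assumed to vary like the rest. In the fits with the block, 16 interferon-stimulated genes were called lower without clone 1 of the inhibitor, and 16 without clone 1 of the control.

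The let-7 seed difference in medians of 0.0377 ranged from 0.0216 to 0.0523 with a library left out. It was 0.0533 for coding matches, and 0.0581 and 0.0635 in the GC bins 2 and 5 of 5. For the seeds of miR-301b and miR-181c it was −0.0178 and −0.0253. Of the rises, 81.3% held a match among the 16 of DESeq2 without the block and 54.6% over the 10 libraries. No such share could be had where 0 genes rose.

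A GC correction reversed CCNE2 (0.017), CDK1 (0.024) and SKIL (0.13), each to the same rounded value with and without the block. IGF1R turned to −0.32 without the inhibitor library of clone 1 and to −0.19 without the control of clone 2, and ranged from −0.32 to 0.64. CDH1 turned to −0.19 without the inhibitor library of clone 2 and to −0.16 without the control of clone 1, and ranged from −0.19 to 0.49. All 4 are fits with no block. The cause was not tested. RLE size factors and no filter on low counts changed no call among the 97 named genes tested. The spread between genes could not be estimated with the GC correction and block or without the filter, so p-values there rest on the trend alone and are too small.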
